A study of Homo sapiens with 8 samples.

Results

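The accessible regions of human chromosome 13 were examined in ATAC-seq data from HEK293T cells. Peaks of 8 libraries that overlapped or touched were merged into 96872 regions, and the 4908 regions on chromosome 13 were kept. The chromosome had been picked because it carries few genes and holds a large and variable share of the peaks, so that share is given as a description and is not tested.

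ATAC-seq uses the transposase Tn5 to cut and tag DNA that is not packed into closed chromatin. HEK293T is a line derived from human embryonic kidney cells that carries the SV40 large T antigen. The labels give 4 libraries from cells with an H2A(E92K)-lentivector and 4 from cells with an H2A-lentivector, all untreated. E92K denotes a lysine in place of a glutamate in histone H2A, a residue of the acidic patch on the nucleosome surface. Both groups therefore carry a vector, and no library of cells without one was analysed here. The labels do not name the promoter of the vector, whether the cells are a clone or a pool, or whether the 4 replicates of a group were separate cultures. All p-values therefore measure the spread between these libraries, which may be technical. The promoters of PAX2, WT1, SIX2, SALL1 and LHX1, genes of embryonic kidney, held a peak in all 8 libraries. Those of UMOD, AQP1 and SLC34A1, genes of mature kidney tubule, held none, and neither did those of CD3E, ALB and APOA2. PTPRC, a gene of blood cells, held a peak in 1 E92K and 0 H2A libraries.

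Open chromatin marks promoters, where transcription starts, and distal elements such as enhancers, where transcription factors bind. Gene-poor chromosomes usually hold long intergenic stretches, called gene deserts, that surround developmental genes with few neighbours. HEK293T has a rearranged karyotype in which the number of copies differs between chromosome segments. In a bulk library a weak peak can come from few open cells or from little opening in each cell, and these cannot be told apart.

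The sequences below are the 300 bases around the summit of 2 regions, on the plus strand of hg38 from 5′ to 3′, with the 31 bases centred on the summit in capitals. They are the strongest region called in every H2A and in no E92K library, and the strongest region called in all 8. Strength here is the rank by p-value within the lists, by the lowest of the 4 percentiles for the H2A-only region and by the median of all 8 for the other. The first lies in an intron of KLF12, a zinc finger transcription factor, at chr13:73912805-73913104. The second is the shared promoter of MZT1 and BORA, which act in spindle assembly, at chr13:72727604-72727903.
H2A-only, intron of KLF12: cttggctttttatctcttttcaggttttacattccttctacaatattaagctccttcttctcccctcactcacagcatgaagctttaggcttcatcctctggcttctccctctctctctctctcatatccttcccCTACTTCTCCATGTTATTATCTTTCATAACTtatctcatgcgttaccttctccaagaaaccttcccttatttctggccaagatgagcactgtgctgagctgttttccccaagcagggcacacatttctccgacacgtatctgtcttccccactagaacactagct
All libraries, MZT1 and BORA promoter: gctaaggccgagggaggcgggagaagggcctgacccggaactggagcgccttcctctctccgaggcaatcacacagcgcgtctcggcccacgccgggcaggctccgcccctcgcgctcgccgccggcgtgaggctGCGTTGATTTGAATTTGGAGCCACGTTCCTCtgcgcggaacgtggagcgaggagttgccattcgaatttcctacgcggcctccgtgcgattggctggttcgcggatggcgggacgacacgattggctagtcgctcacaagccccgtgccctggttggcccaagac
The GC content of these stretches was 44.3% at KLF12 and 66.3% at MZT1 and BORA. Of the 12 motifs searched on both strands, the KLF12 stretch held 1 match to the GATA factor motif AGATAAG, on the minus strand at chr13:73912969-73912975. The MZT1 and BORA stretch held 2 matches to the CCAAT box AGCCAAT, both on the minus strand, at chr13:72727827-72727833 and chr13:72727859-72727865. The CCAAT box was searched after the sequences had been read. It occurred within 250 bp of the centre of 2611 of the 35695 regions called in all libraries on other chromosomes (7.31%).

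Chromosome 13 held 50.1 regions per Mb of sequence without gaps, first among the 23 chromosomes in the lists, with 3.30 protein-coding genes per Mb, the fewest of the 23. Chromosome 4 held 31.7 regions and 3.99 coding genes per Mb, and chromosome 18 held 26.8 regions and 3.32 coding genes per Mb. Of the regions called in every library, the chromosome as a whole held 12.2 per Mb, rank 14 of 23. Of its 4908 regions, 1200 (24.4%) were called in all 8 libraries and 1730 (35.2%) in 1 library. On all other chromosomes together 38.8% were called in all 8 and 26.0% in 1.

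The regions were concentrated in one stretch. When the chromosome was divided into windows of 1 Mb, the longest run of windows with at least 60 regions each extended from 61 to 95 Mb, a limit set after the density had been seen. These 34 Mb held 3316 regions, 67.6% of the chromosome's total, or 97.7 per Mb. The rest of chromosome 13 held 1592 regions, or 24.9 per Mb, and the other chromosomes held 32.7 per Mb. Inside the stretch a window held between 65 and 145 regions, with a median of 92.5. Outside it the 62 windows with any peak held between 3 and 59, with a median of 26, so no window outside reached the lowest inside. Part of this gap was fixed by the rule. It puts each window inside at 60 or more and the windows next to the stretch below 60. The edge at 61 Mb was sharp: from 60 to 63 Mb successive windows held 29, 72 and 144 regions. The edge at 95 Mb was less so. From 94 to 97 Mb the windows held 69, 39 and 16 regions, and from 97 to 100 Mb they rose again to 35, 47 and 56.

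The stretch is poor in genes. It held 41 coding genes, or 1.21 per Mb, against 4.40 per Mb on the rest of chromosome 13. The fullest 5 Mb window, from 65 to 70 Mb, held 631 regions and 1 coding gene, and was the fullest of the genome. The windows from 60 to 65 Mb (492 regions) and from 70 to 75 Mb (481 regions) came next. The 7 windows between 60 and 95 Mb, with 417 to 631 regions, were the 7 fullest of the genome. The emptiest windows of the chromosome were those from 15 to 20 Mb with 13 regions in 3.83 Mb of known sequence, from 105 to 110 Mb with 47, and from 100 to 105 Mb with 68. Of windows with at least 4.5 Mb of known sequence and at most 7 coding genes, 6 on chromosome 13 held 92 to 631 regions (median 447), and 40 on other chromosomes held 9 to 182 (median 75).

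**Figure D1:**
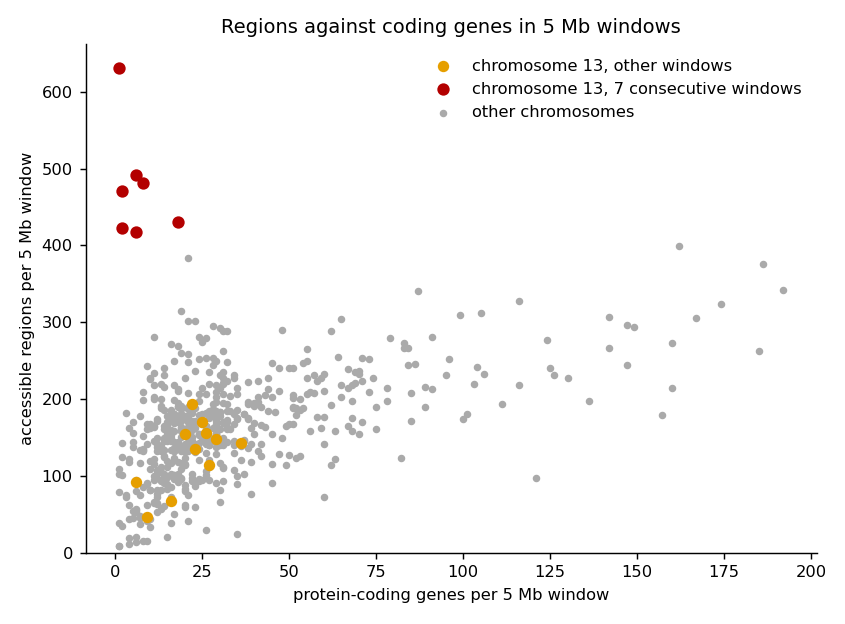
Accessible regions against protein-coding genes in 5 Mb windows of all chromosomes, each point a window. The 7 consecutive windows of chromosome 13 (dark red) hold 417 to 631 regions with few genes, while the other windows of chromosome 13 (orange) lie among those of other chromosomes (grey).

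Regions of the stretch differed in kind from those of the rest of the chromosome. A region was placed by its midpoint as promoter (within 1000 bp of a coding transcription start), exon, intron or intergenic. In the stretch 2648 regions were intergenic (79.9%), 613 intronic (18.5%), 18 exonic (0.543%) and 37 at promoters (1.12%). On the rest of chromosome 13, 756 were intergenic (47.5%), 563 intronic (35.4%), 39 exonic (2.45%) and 234 at promoters (14.7%). The median distance to a coding transcription start was 440 kb in the stretch, 37.1 kb on the rest of the chromosome and 29.4 kb elsewhere. More than 200 kb separated 2393 regions of the stretch (72.2%) from any such start, against 254 (16%) on the rest of chromosome 13.

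They were also smaller, poorer in GC and less often shared. Median width was 511 bp in the stretch and 661 bp on the rest of chromosome 13, and median GC content was 39.7% and 46.1%. Only 594 regions of the stretch (17.9%) were called in all 8 libraries, against 606 (38.1%) on the rest of the chromosome, and 1333 (40.2%) were called in 1 library, against 397 (24.9%). Per Mb, however, the stretch held 17.5 regions called in all libraries, against 9.46 on the rest of chromosome 13 and 12.7 on other chromosomes.

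The distal regions called in all 8 libraries, meaning intronic and intergenic ones, were searched within 250 bp of their centre. The CTCF core, a motif of the factor that anchors chromatin loops, was found in 35 of 558 in the stretch (6.27%), in 69 of 390 on the rest of chromosome 13 (17.7%) and in 4133 of 22391 elsewhere (18.5%). The GC box GGGCGGGG was in 0.896%, 4.87% and 8.05% of the same sets. The GATA motif AGATAAG was in 12.9%, 8.97% and 7.87%. The octamer ATGCAAAT, bound by POU factors, was in 6.09%, 2.82% and 2.51%. The AP-1 motif TGANTCA was in 19.2%, 14.9% and 16.1%. Median GC content over all regions was 39.7% in the stretch, 46.1% on the rest of chromosome 13 and 47.3% elsewhere. The shares of the other motifs named here rose or fell in that order, and those of AP-1 did not. The part of GC content in these shares was not tested. A match shows letters and not binding.

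Local background was high along the whole stretch. For each summit the deposited fold and p-value gave back a whole-number pileup of fragments and the local background it had been tested against. The lowest background in a list is the genome-wide value of that library, called the floor here, which local background exceeds where surrounding coverage is high. Of the intergenic peaks in the stretch, 0.904%, 1.78%, 2.16% and 0.787% were at the floor in the 4 E92K libraries and 2.85%, 0.878%, 1.87% and 2.06% in the 4 H2A libraries. On the rest of chromosome 13 the range was 26.1% to 34.4% in E92K and 30.3% to 36.2% in H2A libraries. Chromosome 4 had 25.1% to 33.3% and chromosome 18 had 17.7% to 28.3% over the 8 libraries. In 1 Mb windows, no window outside the stretch had a share of distal peaks at the floor as low as the highest inside. The first window inside, which had 14.4%, is left out of that comparison. All other windows inside had at most 7.30%, and those outside had 9.29% to 100% (median 32.1%).

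**Figure D2:**
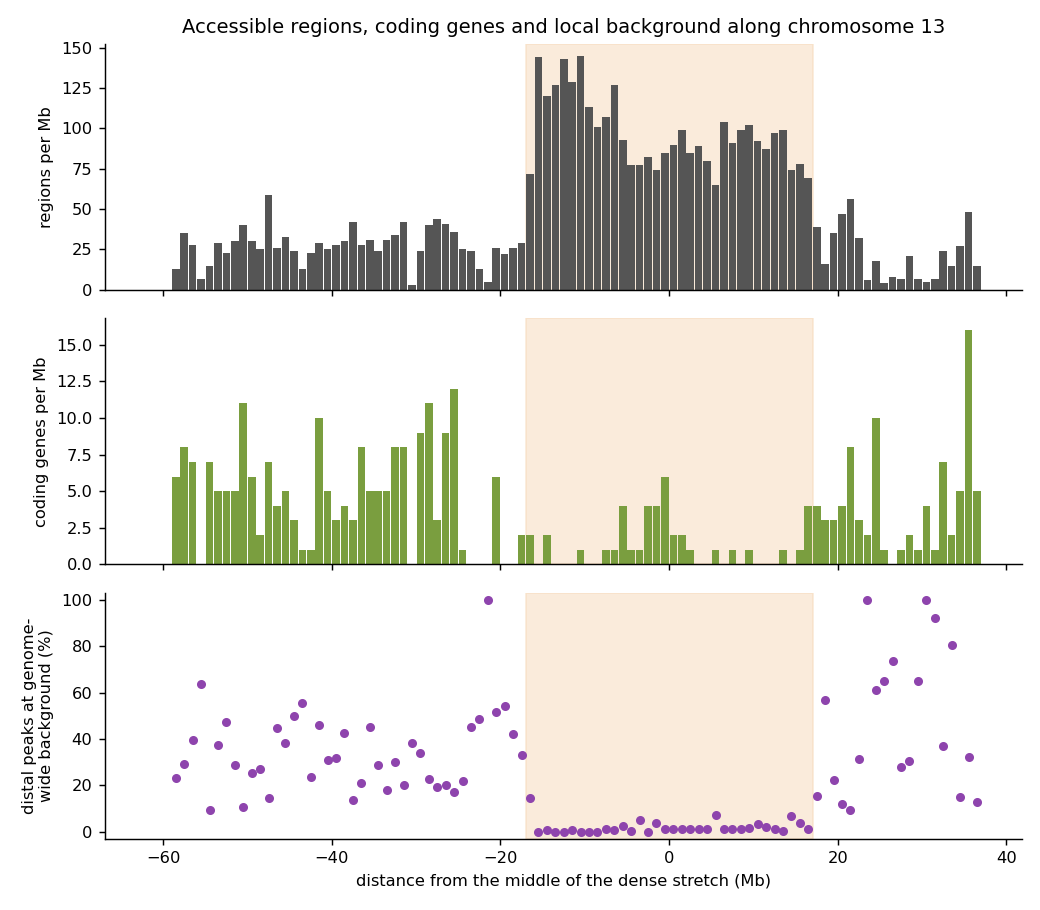
Regions per Mb (top), coding genes per Mb (middle) and percentage of distal peaks at the genome-wide background (bottom, peaks of all 8 libraries) in 1 Mb windows, against distance in Mb from the middle of the dense stretch, which is shaded. Region counts step up and the percentage at the background steps down at the left edge of the shaded part, where genes are few. Past the right edge the counts fall and then partly rise again.

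Within the stretch the first 6 full windows, from 62 to 68 Mb, had the highest 10th percentile of local background. Most of them also had the highest region counts. These 6 windows held 120 to 145 regions each, with a median of 136. The 10th percentile of the background of their distal peaks was 1.73 to 1.96 times the floor. The windows from 68 to 95 Mb held 65 to 127 regions, with a median of 90, and that percentile was 1.03 to 1.56 times the floor. On this percentile the sets did not overlap, while their region counts did. Their median backgrounds overlapped too, with 2.24 times the floor from 64 to 65 Mb and 2.73 times from 94 to 95 Mb.

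Promoters showed the same step without using the small distal peaks. The 32 promoter regions of the stretch that were called in all 8 libraries had a median summit pileup of 347 ± 22.3 fragments in E92K and 366 ± 39.2 in H2A libraries (SD, n = 4 each). The 204 such promoter regions on the rest of chromosome 13 had 105 ± 7.99 in E92K and 113 ± 10.7 in H2A libraries, and the 12421 on other chromosomes had 121 ± 10.7 and 127 ± 11.7. The ratio of stretch to rest of the chromosome was 3.15 to 3.49 over the 8 libraries for pileup and 3.37 to 3.56 for local background. Fold enrichment, which divides one by the other, did not share the step. Its median in the stretch was 7.16 ± 0.226 in E92K and 7.43 ± 0.297 in H2A libraries, and on the rest of chromosome 13 it was 8.08 ± 0.118 and 8.09 ± 0.280. The stretch-to-rest ratio of fold was 0.851 to 0.979. The number of DNA copies was not measured, so copy number and accessibility cannot be told apart in pileup. No test was made, since the stretch was chosen by its density in the same libraries.

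**Figure D3:**
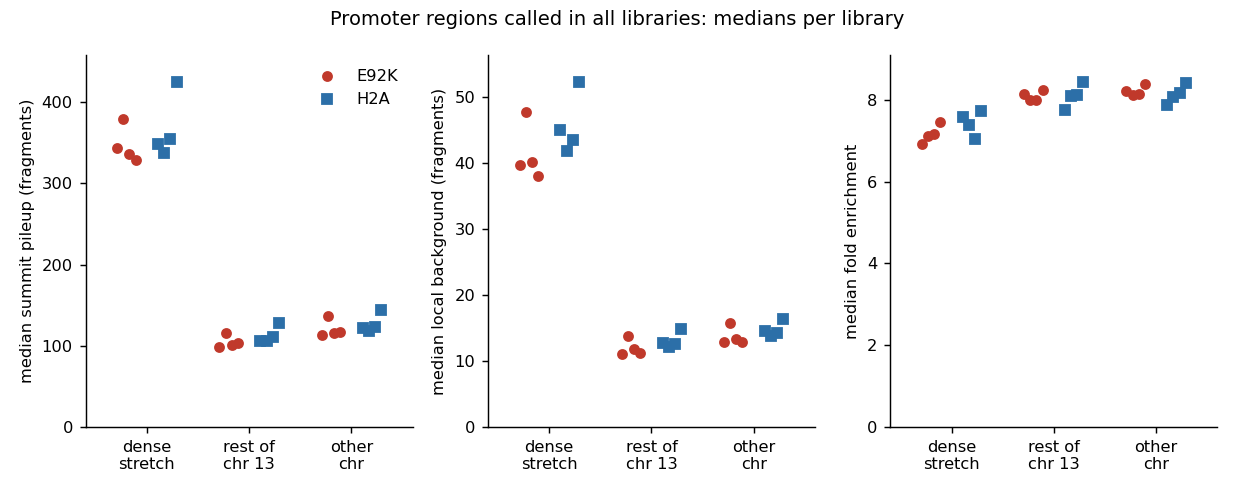
Median summit pileup, local background and fold enrichment of promoter regions called in all libraries, for the dense stretch, the rest of chromosome 13 and the other chromosomes, 1 point per library with E92K (red circles) left of H2A (blue squares). Pileup and background are over 3 times as high in the stretch as on the rest of the chromosome in each library, while fold is slightly lower.

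Distal regions called in all 8 libraries had a smaller step. In the 558 of the stretch the background was 1.67 to 1.84 times, and the pileup 1.12 to 1.21 times, that of the 390 on the rest of chromosome 13 over the 8 libraries. Their median fold was 4.90 ± 0.0541 in E92K and 4.64 ± 0.0847 in H2A libraries, against 6.5 ± 0.0399 and 6.23 ± 0.311 on the rest of the chromosome. Over all peaks of the chromosome, local background was 1.04 ± 0.0129 in E92K and 1.05 ± 0.0148 in H2A libraries relative to the autosomal median of the same list. That average joined 1.15 in E92K and 1.16 in H2A libraries for the stretch to 0.797 in E92K and 0.813 in H2A libraries for the rest. Chromosome 4 had 0.771 in E92K and 0.781 in H2A libraries, and chromosome 18 had 0.875 and 0.885. Summit pileup over all peaks had another order: 0.723 in E92K and 0.726 in H2A libraries for the stretch, 0.866 and 0.863 for the rest of chromosome 13, 0.764 and 0.775 for chromosome 4, and 0.841 and 0.838 for chromosome 18. The stretch was thus highest by background and lowest by pileup when its many small distal peaks were included. Among intergenic peaks alone it was not the lowest by pileup, with 0.864 in E92K and 0.861 in H2A libraries. Chromosome 4 had 0.821 and 0.820 there, chromosome 18 had 0.875 and 0.880, and the rest of chromosome 13 had 0.895 and 0.901.

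Peaks of the chromosome were of low fold enrichment. The median fold was 4.15 ± 0.166 in E92K and 3.99 ± 0.0925 in H2A libraries. In the stretch it was 3.66 ± 0.118 in E92K and 3.54 ± 0.0556 in H2A libraries, against 5.40 ± 0.214 and 5.27 ± 0.0783 on the rest and 5.53 ± 0.147 and 5.33 ± 0.117 on other chromosomes. Intergenic peaks of the stretch had a median pileup of 20 to 22 fragments in every library, against 20 to 24 on the rest of chromosome 13, where the background was lower. The highest fold on chromosome 13 was 13.7 to 16.3 in E92K and 13.5 to 17.2 in H2A libraries.

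The strongest regions of the chromosome lay in the same stretch. All 10 regions with the highest within-list percentile of p-value among those called in every library were in it, a ranking that rises with pileup. First was the MZT1 and BORA promoter at chr13:72726955-72728390, with fold 11.4, 11.3, 11.3 and 11.1 in E92K and 10.7, 11.2, 11.7 and 12 in H2A libraries. Its pileup was 582 to 677 fragments in E92K and 634 to 898 in H2A libraries. The folds of the groups overlap.

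Second was the promoter of PCDH9, a protocadherin of neurons, at chr13:67229350-67231655, with fold 7.22 to 8.39 in E92K and 7.45 to 8.13 in H2A libraries. Then came the shared promoter of DIS3, a ribonuclease of the exosome, and PIBF1, and the promoter of GPR180. Other promoters among the 10 included those of KLF5, a zinc finger factor of epithelia, and of UCHL3, a deubiquitinase, with COMMD6. That of TBC1D4, a Rab GTPase-activating protein that acts in glucose transport, was also among them. Of the 10, 2 were distal. One was intergenic, 46.6 kb downstream of the start of TGDS at chr13:94548824-94550289, with fold 8.56 to 9.61 in E92K and 9.07 to 9.48 in H2A libraries. It had 59.1% GC and overlapped the noncoding gene ENSG00000289878, whose starts do not count in the classes used here.

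The other was in an intron of PCDH9 at chr13:66834226-66835806, 395 kb downstream of its start and 40.3% GC. Its fold was 11.4, 11.7, 11.9 and 12.7 in E92K and 11.0, 10.8, 10.2 and 11.0 in H2A libraries. Every E92K value lay above every H2A value there. Its pileup was 471, 623, 504 and 528 fragments in E92K and 438, 405, 378 and 496 in H2A libraries, which overlap. The difference in fold was not tested because folds of separate lists were only described. How often the folds of other regions called in all libraries separate in this way is not given here.

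The 5 widest regions of the chromosome were in the stretch too. They included the promoter of SLITRK5, a neuronal adhesion protein, at 3400 bp, the promoter of KLF12 at 3380 bp, a PCDH9 intron region at 3125 bp and the promoter of KCTD12, a subunit of GABA-B receptors, at 3000 bp. The host gene of the miR-17 to miR-92a cluster, MIR17HG, had a peak within 1000 bp of a start in 4 of 4 E92K and 4 of 4 H2A libraries. The same held for DLEU1 and DLEU2, noncoding genes outside the stretch.

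Chromosome 13 held 2458, 2589, 2298 and 2272 peaks in the 4 E92K libraries and 2358, 2309, 2375 and 2686 in the 4 H2A libraries. These were 4.23%, 4.19%, 4.0% and 4.09% of the E92K lists and 3.95%, 4.02%, 4.03% and 4.33% of the H2A lists. The highest and the lowest share were both in H2A libraries, and the groups overlap. The range was 9.34% of the mean, the widest of the 23 chromosomes, followed by chromosome 19 with 7.26%.

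Most of that variation was in the dense stretch. Its share was 2.50%, 2.48%, 2.30% and 2.43% in E92K and 2.29%, 2.36%, 2.38% and 2.68% in H2A libraries. The rest of the chromosome took 1.73%, 1.70%, 1.70% and 1.67% in E92K and 1.66%, 1.66%, 1.65% and 1.65% in H2A libraries. These small shares of the rest did not overlap, with E92K above H2A by 0.0451 percentage points. The difference was not tested, since the limits of the stretch were set after the density had been seen. Among 5 Mb windows genome-wide, which are smaller parts, 2.48% had a share higher in all E92K than in all H2A libraries. How often parts of this size separate the groups is not given here. H2A replicate 4, with the largest stretch share, was also the deepest library by its floor, 2.93 fragments against 2.23 to 2.68 in E92K and 2.52 to 2.71 in the other H2A libraries. It had the longest list, 62044 peaks against 55527 to 61850 in all other libraries. The part of depth in the share was not tested.

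**Figure D4:**
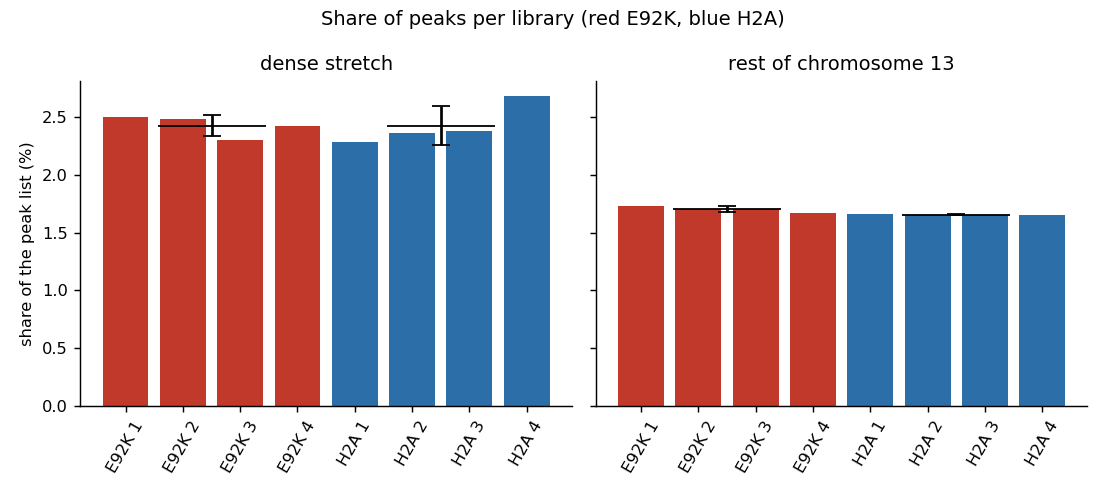
Share of each library's peak list in the dense stretch (left) and on the rest of chromosome 13 (right), in percent, with E92K in red and H2A in blue, lines at the group means and bars for SD. The stretch share runs from 2.29% to 2.68% with overlapping groups, and the rest stays between 1.65% and 1.73%.

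Within the chromosome the groups were compared on 9 values computed among its own peaks. None passed an exact two-sided permutation test over 70 assignments with Benjamini-Hochberg adjustment, which at 4 against 4 cannot give a p below 0.029, so that 1 value alone could not pass the adjustment. The share of peaks at promoters was 10.7% ± 0.587 in E92K and 10.6% ± 0.695 in H2A libraries (permutation p = 0.714, adjusted p = 0.804). The intron share was 24.8% ± 0.338 in E92K and 25.4% ± 0.484 in H2A libraries (permutation p = 0.114, adjusted p = 0.643). The exon share was 1.28% ± 0.170 in E92K and 1.42% ± 0.0446 in H2A libraries, and the intergenic share 63.2% ± 0.652 and 62.7% ± 1.02. The adjusted permutation p was 0.643 for exons and 0.720 for intergenic peaks. The segment from 55 to 95 Mb held 61.4% ± 0.914 of the chromosome's peaks in E92K and 61.7% ± 1.49 in H2A libraries (adjusted permutation p = 0.83). Up to 55 Mb lay 27.6% ± 0.951 in E92K and 27.2% ± 1.06 in H2A libraries, and beyond 95 Mb 10.9% ± 0.420 and 11.1% ± 0.554, each with an adjusted permutation p of 0.804. Median width was 527 ± 16.9 bp in E92K and 513 ± 11.0 bp in H2A libraries, and GC content 42.9% ± 0.430 and 43.2% ± 0.129, each with an adjusted permutation p of 0.643. Several of these differences changed sign when a library was left out, H2A replicate 4 among them. The 9 values are not independent of the chromosome's share of peaks, which was used to choose it. H2A replicate 4 had the highest share, 4.33%, the highest part from 55 to 95 Mb, 63.9%, and the lowest promoter share, 9.53%. Of the 18 windows of 5 Mb with at least 4.5 Mb of sequence on the chromosome, 0 separated the groups by share of the list, where 2.48% of such windows genome-wide were higher and 3.01% lower in all E92K than in all H2A libraries.

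Taken as a whole, with its dense stretch, chromosome 13 did differ from 2 other gene-poor autosomes in the same libraries. Its promoter share averaged 10.7% over the 8 libraries, against 16.7% on chromosome 4 and 19.2% on chromosome 18, lower in 8 of 8 libraries. Its intergenic share was 62.9%, against 44.1% and 42.7%, higher in 8 of 8. GC content was 43.1%, against 44.7% and 46.9%, lower in 8 of 8. Each of these 6 differences had p = 0.00781 in an exact two-sided sign-flip test over all sign patterns, the smallest it can give. The adjusted p of that test was 0.00893 over 8 tests. These p-values measure the spread between libraries and not between chromosomes. Chromosome 13 was chosen for its few genes and large share of peaks, and its promoter and intergenic shares are not independent of that choice. Median width was 520 bp, against 547 bp on chromosome 4 (lower in 8 of 8, exact adjusted p = 0.00893) and 531 bp on chromosome 18 (lower in 7 of 8, exact adjusted p = 0.0547). Neither width difference held among peaks with a q-value of 1e-05 or less. There the difference was −1 bp for chromosome 4, and the chromosome 13 peaks were 17.3 bp wider than those of chromosome 18. Outside the dense stretch, 47.5% of the merged regions of chromosome 13 were intergenic, against 47.2% on chromosome 4 and 47.5% on chromosome 18. At promoters were 14.7%, against 10.1% and 11.1%, and median GC content was 46.1%, against 43.1% and 44.6%.

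Few regions separated the groups. On chromosome 13, 6 of 4908 regions (0.122%) were called in all 4 E92K and no H2A library, where 0.139% of all regions of the genome were. Another 6 (0.122%) were called in all 4 H2A and no E92K library, against 0.184% genome-wide. With a difference of at least 3 libraries, 55 regions (1.12%) leaned to E92K and 59 (1.20%) to H2A, against 1.16% and 1.38% of all regions. These shares were near or below the genome's. No region on the chromosome or elsewhere passed Fisher's exact test once p was adjusted (Benjamini-Hochberg) over all 96872 regions. At 4 against 4 its smallest p is 0.029, so with this many regions the test could not be expected to pass any of them, and its result says nothing about stability. In all, 12 on chromosome 13 had an unadjusted p under 0.05, each at that smallest value. Of the 55, 46 were intergenic, 8 intronic and 1 exonic. Of the 59, 39 were intergenic, 19 intronic and 1 exonic. Over all 4908 regions 69.4% were intergenic, 24.0% intronic, 1.16% exonic and 5.52% at promoters, and the difference between the 2 leaning sets was not tested.

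The 12 separating regions were weak peaks, in the lower part of each list by p-value. Of the 6 E92K-only regions, 4 lay in the dense stretch, and of the 6 H2A-only regions, 5 did. The one upstream of LATS2, a kinase of the Hippo pathway, at chr13:21067566-21068211 and 6.30 kb from its start, had fold 4.67, 5.16, 4.5 and 6.39 in the E92K libraries, on pileups of 17 to 22 fragments. The one in an intron of LRRC63, at chr13:46220081-46220728, had fold 4.98, 4.62, 5.26 and 6.45 in those libraries on 16 to 20 fragments. The region in the noncoding gene LINC00559, at chr13:90105921-90106637 and 1292 kb upstream of GPC5, a glypican of the cell surface, had fold 4.07, 4.05, 4.33 and 4.05.

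The other 3 E92K-only regions were weaker. A desert region at chr13:61975453-61975911 had fold 2.63, 2.44, 2.89 and 2.71. One at chr13:66111762-66112241, 1118 kb downstream of the start of PCDH9, had fold 2.89, 3.43, 2.73 and 2.99. One at chr13:89232416-89233488, in the overlapping noncoding genes LINC00440 and LINC01047, had fold 3.06, 2.87, 2.94 and 3.13 on 11 to 13 fragments.

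Among H2A-only regions, the KLF12 intron region shown above, at chr13:73912543-73913305, had fold 2.89, 3.07, 3.16 and 2.82 in the H2A libraries, each on 24 fragments. A region in LINC02336, at chr13:89748173-89748911, had fold 3.56, 3.24, 3.5 and 3.87. One lay 86.6 kb downstream of the start of IRS2, an adaptor of insulin signalling, at chr13:109699663-109700367, with fold 4.04, 4.54, 3.11 and 3.05 on 10 to 15 fragments. The remaining 3 were intergenic and in the stretch.

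They lay 413 kb downstream of MZT1 at chr13:72313986-72314623, 1133 kb upstream of SPRY2, an inhibitor of receptor tyrosine kinase signalling, at chr13:81473394-81474336, and 765 kb upstream of SLITRK5 at chr13:86906140-86906863. Their folds ranged from 2.68 to 4.06. The 31 bases around the summit occurred at 1 place in hg38 for 11 of the 12 regions, and at 2 places for the LRRC63 region. The GATA motif was within 250 bp of the centre of 0 of the 6 E92K-only and 3 of the 6 H2A-only regions, the TEAD motif CATTCCA of 2 and 1, the E-box CAGCTG of 1 and 2, and the CTCF core of 0 and 0. Over all chromosome 13 regions these motifs were in 9.74%, 9.52%, 22.3% and 5.44%. With 6 regions a side these counts were not compared. A library without a peak at such a place may still have open chromatin below the limit of its list.

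**Figure D5:**
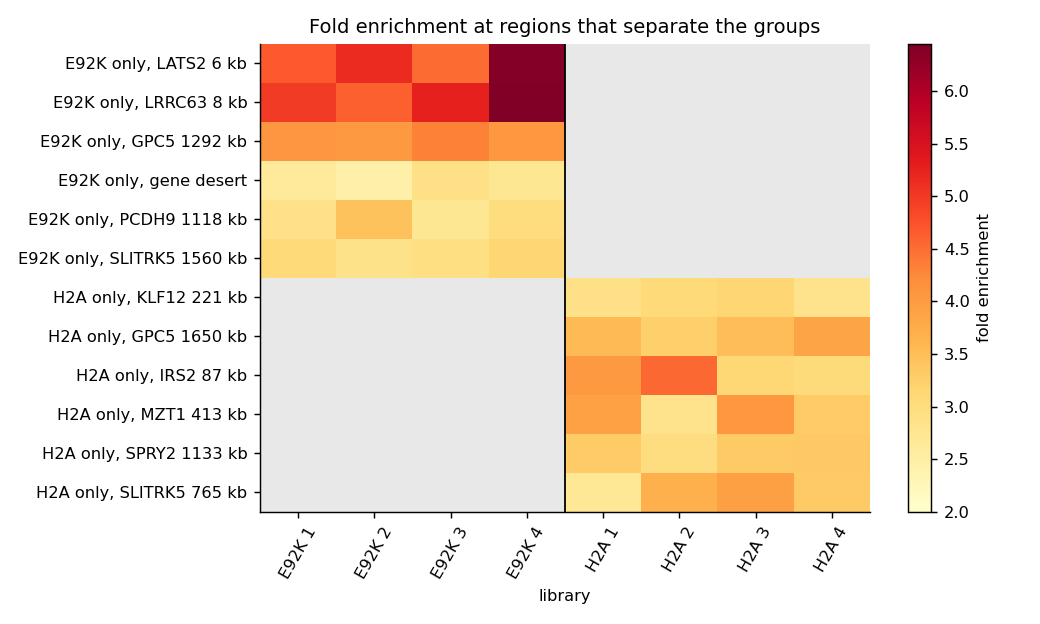
Fold enrichment (colour) in each library at the 12 regions called in every library of 1 group only, named by the nearest coding gene and the distance to its start in kb, with grey where no peak was called. Values run from 2.44 to 6.45, and the 2 E92K-only regions near LATS2 and in LRRC63 have the highest folds.

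Promoter peaks on the chromosome rarely differed between the groups. Of 320 coding genes with an annotated start, 240 (75%) had a peak within 1000 bp of it in all 8 libraries, 21 in 1 to 7 and 59 in none. In the dense stretch 34 of 41 were open in all 8 (82.9%), against 206 of 279 (73.8%) on the rest of the chromosome and 13345 of 19617 (68.0%) over all coding genes. No promoter of chromosome 13 was called in at least 3 more libraries of one group than of the other, where 0.347% of all coding genes were. Genome-wide, 0.0051% of coding genes were open in all E92K and no H2A libraries and 0.0255% in all H2A and no E92K libraries, and on chromosome 13 there were 0 of either. By Fisher's exact test with adjustment over all genes, which has the same smallest p, 0 passed, and 0 on chromosome 13 and 6 in the genome had an unadjusted p under 0.05.

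The 3 genes of the stretch with no promoter peak were ACOD1, which makes itaconate in macrophages, SCEL, a protein of the cornified envelope of skin, and ENSG00000197991. The 4 called in some libraries were DCT, an enzyme of melanin synthesis, in 1 E92K and 0 H2A libraries, KLHL1, a neuronal protein, in 2 and 0, ENSG00000237378 in 0 and 2, and ENSG00000285566 in 1 and 2. The remaining 34 included the neuronal adhesion genes SLITRK1, SLITRK5, SLITRK6, PCDH9 and PCDH20 and the transcription factors DACH1, KLF5, KLF12, POU4F1 and SOX21. Among these promoters SOX21 had the lowest mean fold, 3.43 ± 0.131 in E92K and 3.55 ± 0.217 in H2A libraries. The shared promoter of DIS3 and PIBF1 was among the highest, with 11.5 ± 0.312 in E92K and 11.5 ± 0.726 in H2A libraries.

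Lists of chromosome 13 genes differed in how many were open, and in none of them did a promoter separate the groups. Of 50 genes of genome upkeep, cell cycle and core gene expression, 49 were open in all 8 libraries and only UTP14C in none. BRCA2, which repairs DNA breaks, had fold 10.1 ± 0.548 in E92K and 10.8 ± 0.812 in H2A libraries, and RB1, the retinoblastoma cell cycle inhibitor, had 8.34 ± 0.895 and 7.98 ± 0.887. Of 16 developmental transcription factors 15 were open in all 8 and SOX1 in none.

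Of 23 genes of neural adhesion, channels and receptors, 17 were open in all 8, 4 in some and 2, KCTD4 and MYO16, in none. The 4 were HTR2A, a serotonin receptor, in 2 E92K and 0 H2A libraries, PCDH8 in 4 and 3, FGF14 in 3 and 4, and GPR12 in 1 and 1. Of 17 genes of signalling, matrix and vessels, 15 were open in all 8, KL, a co-receptor of fibroblast growth factor 23, in 2 E92K and 3 H2A libraries, and POSTN, a matrix protein, in none. Of 24 genes of blood cells, liver, gut and other differentiated tissue, 7 were open in all 8, 3 in some and 14 in none. The 3 were SLC15A1, a peptide transporter of the gut, in 3 E92K and 4 H2A libraries, and F10, a clotting factor, and GPR183, a receptor of lymphocytes, in 0 and 1 each.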

How the data were processed

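Each library had 1 deposited list of peaks in narrowPeak layout, without a header, called per sample. The labels name hg38 as the genome of the alignment. The aligner, peak caller, Tn5 shift and treatment of duplicates were not given in the sources used here. Any of them can change peak widths and counts. The deposited columns are a whole-number score, a fold enrichment (a ratio of summit to local background) and −log10 p-values and q-values. The lists end at a q-value of 0.01. Total read numbers are unknown.

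Repeated intervals were taken as further summits of 1 peak, which was represented by its most significant one. Pileup and local background were recovered from fold and p as a Poisson test, within 0.001 of the −log10 p in 100% of summits, after tests on simulated data. Promoters, exons and introns came from GENCODE version 44, in windows of 1000 bp for promoters. Presence needed 1 bp of overlap. Group values were compared by exact permutation over 70 assignments, chromosomes by exact sign flips, and regions and promoters by Fisher's exact test, and p-values were adjusted by Benjamini-Hochberg, with a threshold of 0.05. Folds were used only to describe or rank peaks within a list. Motifs were matches of 12 letter strings on either strand, with N for any base. The text names the regions that separate the groups, the 10 strongest, the 5 widest, the 3 fullest and 3 emptiest windows, and members of 5 gene lists of the chromosome. A few items that this rule covers are not reported here. The region set, gene lists, motifs and tests were chosen with earlier results of these data known. The dense stretch, the share of peaks at the floor, the promoter pileups, the CCAAT box and the counts of summit copies were added after seeing the data. No other column of per-sample values was used. Python 3.11.15, numpy 2.4.6, pandas 2.3.3, scipy 1.17.1 and matplotlib 3.10.9 were used.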

Additional observations from a re-analysis of the deposited data

Results flagged for a closer look

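In the H2A group of 4 libraries, replicate 4 stood apart in 3 values, lying farther from its nearest neighbour than Dixon's 95% critical value allows. Its promoter share of chromosome 13 peaks was 9.53%, with a group median of 10.8% and a maximum of 11.0%. Its share of chromosome 13 peaks up to 55 Mb was 25.6%, with a group median of 27.7%. Its summit pileup on chromosome 13 was 0.727 of the autosomal median, with a group median of 0.767. This library was the deepest and had the longest list. The 3 values come from 32 groups tested, and chance alone flags about 1 in 20.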

How the results depend on the processing

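Of 269 recomputed values, 234 kept their direction and side of the threshold or moved little, and no group comparison passed its adjusted threshold under any setting run. Differences between E92K and H2A, in percentage points, changed sign as follows. The promoter share difference became -0.211 with peaks at a q-value of 1e-05 or less and -0.232 with equal list lengths. The difference from 55 to 95 Mb became 0.0589 and 0.716 under the same settings, and that up to 55 Mb became -0.425 with equal list lengths. With 1 library left out, the ranges were -0.160 to 0.420 for promoters, -0.690 to 0.432 for 55 to 95 Mb, -0.0507 to 0.698 up to 55 Mb and -0.381 to 0.0635 beyond 95 Mb. Without H2A replicate 4 they were -0.160, 0.432 and -0.0507 for the first 3, without E92K replicate 4 the first was -0.00344, without E92K replicate 3 the second was 0.149, and beyond 95 Mb it was 0.0105 without E92K replicate 2 and 0.0635 without H2A replicate 1. The difference in the chromosome 13 share of peaks, which was not tested, ran from -0.000223 (without H2A replicate 1) to 0.128.

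At the stricter q-value chromosome 13 held 2559 regions, 1470 of them in the dense stretch (57.4%). At that value the width difference to chromosome 4 was -1 bp (exact adjusted p = 0.828) and that to chromosome 18 was 17.3 bp (exact adjusted p = 0.0179). The chromosome 18 difference ran from -14.3 to -7 bp with 1 library left out, and was past the threshold without E92K replicate 3 (exact adjusted p = 0.0156). With at least 50% of a region covered, E92K-only regions numbered 13 and regions called in every library 721. With 1 library left out, E92K-only regions numbered 7 to 19 and H2A-only regions 7 to 16, where fewer libraries have to be met. Chromosome 13 background over the autosomal median was 1.23 in intergenic peaks and 0.964 in regions called in all libraries, and pileup was 0.868 and 0.790. The cause of these moves was not tested.

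In the replicate block, which compares same-numbered libraries, no group value passed, but with 4 pairs the exact sign-flip p cannot fall below 0.125, so none could. The smallest exact sign-flip adjusted p was 0.562, for the exon share (-0.144 percentage points) and the intron share (-0.592), and the largest was 0.875, for the promoter share (0.185). The correlations of same-numbered libraries were 0.0014, -0.0021, 0.0097 and -0.0121. Those of the 12 other pairs ran from -0.0258 to 0.0224, a range that holds all same-numbered pairs. The quantity correlated is not given here, so these values only compare same-numbered with other pairs. They do not measure how many regions the libraries share. Of the chromosome's regions, 1200 were called in all 8 libraries. Weak peaks near the limit of the lists depend on depth, which differed between libraries.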
